A study of Rattus norvegicus with 18 samples.

Results

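Rat primary hepatocytes kept for 72 h with 100 µM EMD were compared with hepatocytes kept for the same time with vehicle. The comparison rested on 6 of the 18 arrays of the study, 3 per group, chosen by their labelled dose and time and by no measured value. EMD, a compound known by its code, was studied as an agonist of both PPARα and PPARγ, the peroxisome proliferator-activated receptors α and γ. The hepatocytes came from Wistar rats, and the sources used here give no age for the animals. After 24 h for attachment, all cultures, the vehicle cultures included, were kept in medium holding gentamicin, insulin and hydrocortisone. The vehicle group received 0.1% DMSO. The other 12 arrays held 30 µM EMD at 72 h and the vehicle, 30 µM and 100 µM groups at 24 h, and they are used below where the response to 100 µM at 72 h is set against a lower dose or an earlier time. Isolated hepatocytes in culture lack the blood flow, hormones and neighbouring cells of the liver, and an agonist of both receptors does not separate the part of either one.

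PPARα is a nuclear receptor that pairs with the retinoid X receptor and binds DNA repeats near genes of fatty acid use. In rodent liver its agonists raise the enzymes of mitochondrial and peroxisomal fatty acid oxidation and enlarge the peroxisome compartment. PPARγ is best known from fat cells, where it raises genes of fatty acid uptake and lipid storage.

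Expression was read on whole-genome rat arrays, as log2 values that had already been background corrected, normalised and summarised per probe set. Of 31042 probe sets tested, 5308 (17.1%) differed between 100 µM EMD and DMSO at 72 h at an adjusted p under 0.05 in limma's moderated test, 2302 higher and 3006 lower. Every adjusted p below is from that test, and a gene is said to have risen or fallen where it passed. Read through 1 probe set per gene, 1314 of 14217 genes rose (9.24%) and 1850 fell (13.0%), of which 292 rose and 469 fell by 2-fold or more. The median change over all genes was 0.02 on the log2 scale, and the median standard error (SE) of a change was 0.12. Genes near or under the arrays' median level (5.04 to 5.11) have compressed values on such arrays, so the sizes of their changes are uncertain. The labels number the replicates, as biological ones for EMD, but tie no array to an animal, so the p-values measure only how far these arrays spread. They come from a fit without pairing. With the replicate number as a block, which pairs arrays of the same number, 6587 probe sets differed.

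The first EMD array stood apart from the other two. Its values correlated with theirs at 0.9875 and 0.9898, against 0.9957 between replicates 2 and 3, and array weighting gave it the lowest weight of all arrays (0.4045, with the highest at 2.396). Over the genes that fell by 2-fold or more its median difference from DMSO was −1.08, against −1.54 and −1.58 in replicates 2 and 3, while over the genes that rose by 2-fold or more it was 1.52, against 1.57 and 1.61. List counts over 3 that moved by over 1.5-fold without this array are given both ways. Control probes at the 3′ end of beta-actin exceeded those at its 5′ end, a measure of how complete the labelled RNA was, by 0.698 ± 0.0536 (SD, n = 3) on the log2 scale with DMSO and 0.847 ± 0.00578 (SD, n = 3) with EMD, without overlap, and its part in the results was not tested. The same difference for Gapdh was 0.168 ± 0.0237 and 0.141 ± 0.0245 (SD, n = 3 each), and these groups overlapped. Of 11 measured hepatocyte markers 9 lay above the median level in all 6 arrays, and 1 rose and 5 fell, with a median log2 change of −0.47. Albumin (Alb) was not among those that passed (0.01). In such bulk RNA, fewer cells of a type and less of its RNA per cell cannot be told apart.

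The 15 largest rises included fatty acid enzymes, fatty acid carriers and glycerol channels, together with several genes outside lipid metabolism. Acot1, a cytosolic enzyme that releases fatty acids from acyl-CoA, stood at log2 levels of 4.06, 4.31 and 4.21 in the DMSO arrays and of 12.87, 12.70 and 12.74 in the EMD arrays. Its log2 change of 8.58 ± 0.09 (SE, adjusted p = 2.8e-19) took it from below the arrays' median level to among their brighter probe sets. Serpine2, an extracellular inhibitor of thrombin and other serine proteases, went from 4.79, 4.98 and 5.44 to 10.77, 11.03 and 11.03 (log2 change 5.87 ± 0.23, adjusted p = 3.8e-11). Scd2, a fatty acid desaturase, went from 3.29, 3.13 and 3.73 to 10.13, 8.68 and 8.15 (log2 change 5.61 ± 0.40, adjusted p = 6e-08), and here the first EMD array was the highest. Scd2 was read through 1 of its 4 probe sets, and the others changed by 0.15 to 2.47 on the log2 scale. In all 3 genes, as read here, every EMD array lay several log2 units above every DMSO array.

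The water and glycerol channels Aqp7 and Aqp3 rose by 5.21 ± 0.30 and 4.66 ± 0.41 on the log2 scale, and Pdk4, which keeps pyruvate from being oxidised, by 4.40 ± 0.19. Hilpda, a lipid droplet protein that restrains fat breakdown, rose by 3.54 ± 0.15. Outside lipid metabolism the largest log2 rises were those of Chrna2, a nicotinic acetylcholine receptor subunit (5.34 ± 0.31), Cd300a, an inhibitory receptor of immune cells (4.35 ± 0.48), Slc34a2, a sodium-phosphate cotransporter (4.17 ± 0.30), Cacna2d3, a calcium channel subunit (3.89 ± 0.38), and Acp3, an acid phosphatase (3.64 ± 0.26). Of the 15 genes with the largest rise, 8 had a DMSO mean under the arrays' median level, all 15 also rose at 30 µM at 72 h, where 9.44% of all genes rose, and 13 rose at 100 µM at 24 h, where 3.91% did. The 30 µM comparison shares the 72 h DMSO arrays, so its count is no separate support.

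**Figure D1:**
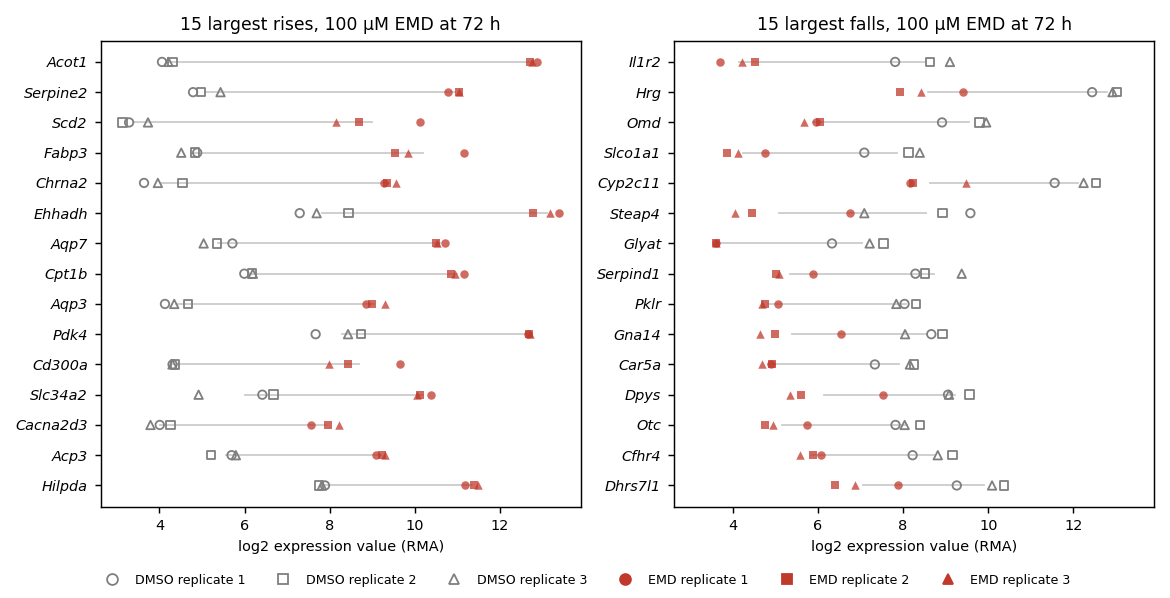
Log2 expression values (x axis) of the 15 genes with the largest rise (left) and the 15 with the largest fall (right) in each DMSO (open grey) and EMD (red) array at 72 h, with marker shapes for replicates 1 to 3 and a line between the group means. The EMD arrays of Acot1 sit between 12.70 and 12.87, far above its DMSO arrays at 4.06 to 4.31, while Steap4 shows the widest spread among the falls.

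The 15 largest falls were of mixed kinds, among them receptors, plasma proteins and metabolic enzymes. Il1r2, the decoy receptor for interleukin-1, had log2 levels of 7.81, 8.63 and 9.10 with DMSO and of 3.71, 4.52 and 4.21 with EMD (log2 change −4.37 ± 0.32, adjusted p = 8.4e-08). Hrg, the plasma histidine-rich glycoprotein, went from 12.44, 13.03 and 12.92 to 9.40, 7.93 and 8.41 (log2 change −4.21 ± 0.37, adjusted p = 6.2e-07). Cyp2c11, the main male-specific cytochrome P450 of rat liver, went from 11.56, 12.53 and 12.24 to 8.16, 8.24 and 9.48 (log2 change −3.48 ± 0.35, adjusted p = 3.1e-06). No EMD array of these 3 genes reached the lowest DMSO array.

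Slco1a1, an organic anion uptake transporter, fell by 3.62 ± 0.38 on the log2 scale, and Glyat, which joins glycine to acyl-CoA, by 3.42 ± 0.35, to a log2 level of 3.60 to 3.62 in all 3 EMD arrays. Further large falls on the same scale were those of Omd, a matrix proteoglycan (−3.66 ± 0.34), Serpind1, heparin cofactor II (−3.39 ± 0.26), Pklr, the liver pyruvate kinase (−3.23 ± 0.26), Gna14, a G protein α subunit (−3.15 ± 0.60), Car5a, mitochondrial carbonic anhydrase (−3.08 ± 0.27), Dpys, dihydropyrimidinase (−3.08 ± 0.53), and Otc, the ornithine carbamoyltransferase of the urea cycle (−2.94 ± 0.32). Steap4, a metalloreductase, changed by −3.44 ± 0.90 (adjusted p = 0.013), and that call was lost without DMSO replicate 1 (adjusted p = 0.0632), DMSO replicate 2 (0.0522), EMD replicate 2 (0.0591) or EMD replicate 3 (0.0749). Of the 15 genes with the largest fall, 12 also fell at 30 µM at 72 h, where 13.0% of all genes fell against the same DMSO arrays, and 7 at 100 µM at 24 h, where 4.33% did. An EMD mean under the median level over all arrays (5.096) was reached by 6 of the 15, so the sizes of those falls are uncertain.

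Genes were also grouped into 47 lists by function or cell type, and each list is given by how many of its measured genes passed the test, beside the 9.24% of all genes that rose and the 13.0% that fell. The lists with the largest shares of risers were the study's own PPARα list, the carnitine shuttle with mitochondrial β-oxidation, and the acyl-CoA thioesterases, and those with the largest shares of fallers were the lists of secreted plasma proteins. Each count was also made without each of the 6 arrays in turn. Counts of 3 or fewer in a list moved by up to 3 genes in this way, and larger counts that moved by over 1.5-fold are given with the array concerned.

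**Figure D2:**
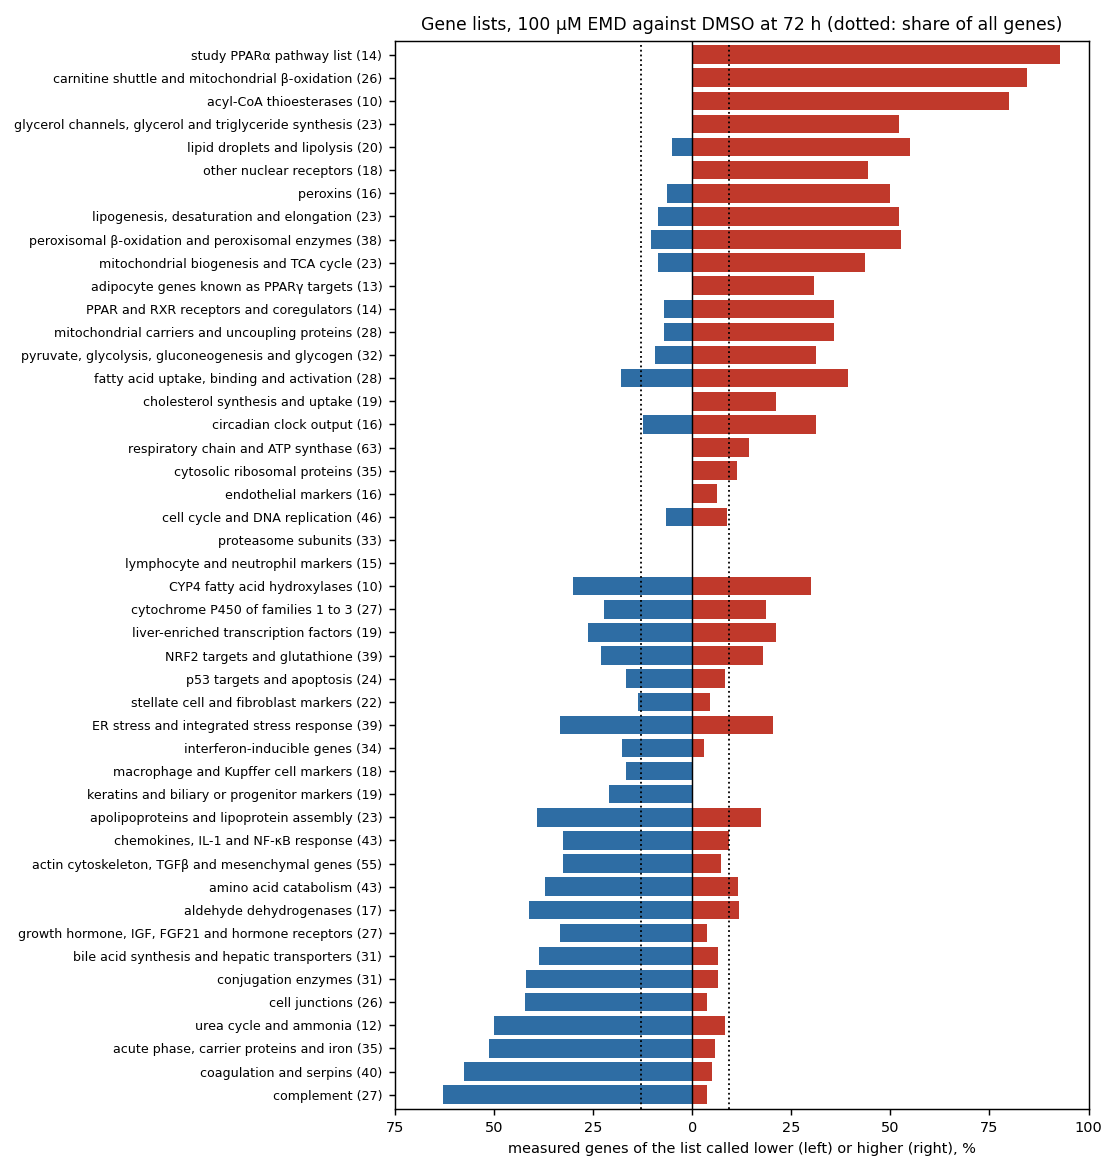
Share (x axis, %) of each list's measured genes that were called lower (blue, to the left) or higher (red, to the right) with 100 µM EMD than with DMSO at 72 h, for the lists with at least 10 measured genes (number in brackets). Dotted lines mark the shares of all genes, 13.0% lower and 9.24% higher, and the list of complement genes reaches 63% lower.

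Of the 14 genes that the study itself had listed for the PPARα pathway, 13 rose and none fell, with a median log2 change of 2.51. The sources used here do not say how the list was drawn up, and the study gave it with values of these samples, so its direction is not taken as independent evidence. Fabp3, a fatty acid carrier typical of muscle, had log2 levels of 4.89, 4.84 and 4.51 with DMSO and of 11.16, 9.53 and 9.85 with EMD (log2 change 5.43 ± 0.31). Ehhadh, which carries out the middle steps of peroxisomal β-oxidation, went from 7.30, 8.45 and 7.69 to 13.39, 12.77 and 13.17 (log2 change 5.30 ± 0.26). Cpt1b, the muscle form of the carnitine palmitoyltransferase that admits fatty acids to mitochondria, went from 5.99, 6.17 and 6.20 to 11.15, 10.84 and 10.94 (log2 change 4.86 ± 0.16). The EMD and DMSO arrays of these genes lay far apart, and the first EMD array was the highest in each.

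The liver form Cpt1a rose less, by 2.13 ± 0.21 on the log2 scale, and Cpt2, its partner on the inner membrane, by 1.85 ± 0.17. Fabp1, the liver fatty acid carrier, rose by 3.48 ± 0.19, the acyl-CoA synthetases Acsl3 and Acsl1 by 3.11 ± 0.14 and 3.03 ± 0.11, and the fatty acid translocase Cd36 by 2.73 ± 0.33. Of 28 measured genes of fatty acid uptake, binding and activation, a list that shares several members with the study's, 11 rose and 5 fell (3 fell without DMSO replicate 1 or 2 or EMD replicate 2). Fabp5, a carrier of skin and fat cells, rose by 0.94 ± 0.20. Acox3, a peroxisomal acyl-CoA oxidase, was the member that did not pass, with log2 levels of 6.77, 6.92 and 6.86 against 7.33, 6.82 and 6.98 (log2 change 0.19 ± 0.15, adjusted p = 0.45).

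**Figure D3:**
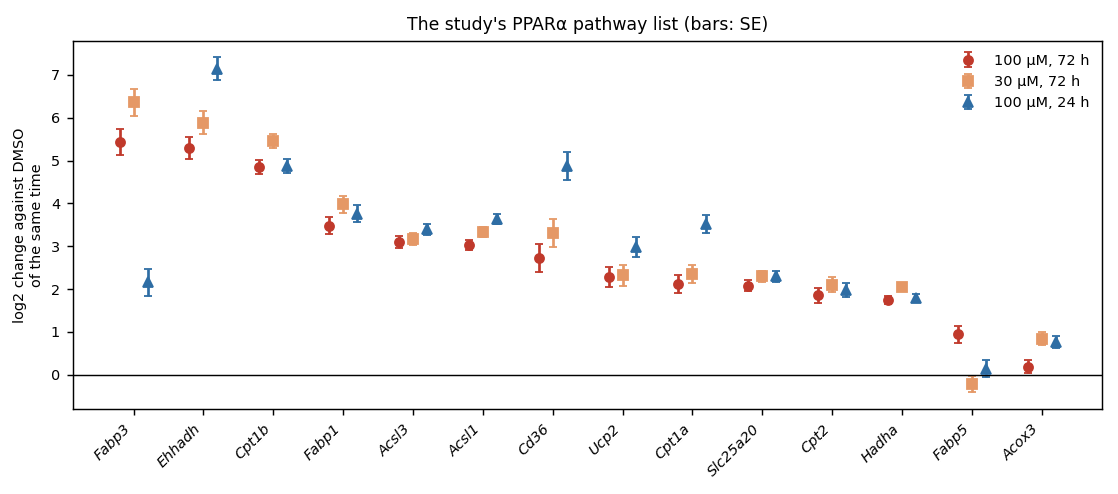
Log2 change against DMSO of the same time (y axis) for the 14 PPARα pathway genes listed by the study, at 100 µM for 72 h (red circles), 30 µM for 72 h (orange squares) and 100 µM for 24 h (blue triangles), with bars for the SE. The 72 h changes at 100 µM run from 0.19 for Acox3 to 5.43 for Fabp3, and Fabp3 stands lower, at 2.16, after 24 h.

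The receptors themselves moved little. Ppara had log2 levels of 5.67, 5.51 and 6.57 with DMSO and of 6.37, 6.54 and 6.34 with EMD, which overlapped (log2 change 0.50 ± 0.20, adjusted p = 0.10), and without DMSO replicate 3 it passed (adjusted p = 5.7e-04). Ppard changed by 0.08 ± 0.16. Pparg had log2 levels of 4.76, 5.15 and 5.53 against 5.39, 6.19 and 6.03, near the arrays' median level (log2 change 0.72 ± 0.24, adjusted p = 0.049). The Pparg call was lost without DMSO replicate 1 (0.207), DMSO replicate 2 (0.109), EMD replicate 2 (0.195) or EMD replicate 3 (0.163), and under several other settings. Rxrg, the retinoid X receptor γ, rose by 2.14 ± 0.18 on the log2 scale, while its liver relative Rxra changed by 0.22 without passing the test. The coactivator Ncoa1 rose by 0.66 ± 0.11. Among the list of receptors and coregulators 5 of 14 rose and 1 fell, and 3 rose without DMSO replicate 1 or 2. The faller was the coactivator Ppargc1a (log2 change −0.83). Its call was lost without DMSO replicate 2 (0.0754) or 3 (0.0696), without EMD replicate 2 (0.061) or 3 (0.0589), and with the 6 arrays alone (0.103). Its relative Ppargc1b rose by 0.86, a call lost with the 6 arrays alone (0.0759). Of 18 other nuclear receptors 8 rose and none fell, among them the bile acid receptor Nr1h4 (1.34 ± 0.15), the clock receptor Nr1d2 (0.94 ± 0.20) and the orphan receptor Esrra (0.70 ± 0.08).

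Because the receptor pair binds a repeat of the half-site AGGTCA with a single base between its copies, RefSeq promoters of the build GRCr8, reaching from 250 bases before to 50 after each start, were searched on both strands, for the 11700 genes that had one. The exact repeat was in 4 of these genes (0.0342%) and in none of the 1118 with a promoter that rose. Allowing any base at the fourth place of each copy (AGGNCA), a match lay in 5 of 1118 genes that rose (0.447%), in 2 of 1539 that fell (0.13%) and in 35 of all 11700 (0.299%). A looser form, which also allowed any base at the first place of the first copy and the last place of the second (NGGNCA and AGGNCN), lay in 3.13% of the genes that rose, 2.73% of those that fell and 2.53% of all. These patterns contain each other, so the looser counts hold the stricter ones. A match of letters is a description of the window and no sign of binding, and a window without a match says nothing of sites elsewhere. The following windows are shown because their genes, fatty acid and glycogen genes that rose, carry a match, which is in capitals. They are Fabp1 (chr4:104749223-104749315, plus strand), Gys2 (chr4:177137264-177137356, minus strand), Acot4 (chr6:109399801-109399893, plus strand) and Acot8 (chr3:173962158-173962250, minus strand), each written in the direction of its gene. In Fabp1 and Acot4 the match is on the strand opposite to the gene, and the Acot windows match the looser form alone.
Fabp1: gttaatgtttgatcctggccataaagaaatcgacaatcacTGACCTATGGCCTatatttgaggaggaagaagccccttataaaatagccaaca
Gys2: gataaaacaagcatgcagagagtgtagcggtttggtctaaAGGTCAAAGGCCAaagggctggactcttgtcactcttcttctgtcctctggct
Acot4: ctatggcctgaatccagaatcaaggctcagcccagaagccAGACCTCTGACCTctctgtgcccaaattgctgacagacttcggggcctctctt
Acot8: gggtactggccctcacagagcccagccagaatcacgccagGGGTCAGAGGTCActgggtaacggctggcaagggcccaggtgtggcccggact
In the cultures, Fabp1 rose by 3.48 ± 0.19 on the log2 scale, Gys2, the liver glycogen synthase, by 1.59 ± 0.17, and the peroxisomal thioesterases Acot4 and Acot8 by 2.43 ± 0.15 and 1.48.

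Most genes that bring fatty acids into mitochondria and through β-oxidation rose. Of 26 measured genes of the carnitine shuttle and mitochondrial β-oxidation 22 rose, none fell and 4 did not pass, with a median log2 change of 1.39. Slc22a5, the carnitine importer of the cell membrane, had log2 levels of 7.07, 6.80 and 6.90 with DMSO and of 9.66, 9.42 and 9.35 with EMD (log2 change 2.55 ± 0.10, adjusted p = 2.5e-11). Crat, carnitine acetyltransferase, rose by 2.76 ± 0.13 on the log2 scale, and the carnitine carrier Slc25a20 by 2.08 ± 0.13. Within the β-oxidation spiral the log2 rises were 1.34 for the very-long-chain dehydrogenase Acadvl, 1.87 for the medium-chain dehydrogenase Acadm, 1.74 ± 0.09 and 1.31 for the trifunctional protein subunits Hadha and Hadhb, and 1.60 for the thiolase Acaa2. Etfdh, which passes their electrons to the respiratory chain, rose by 0.88. Of 7 measured ketogenesis genes 2 rose, the acetyl-CoA acetyltransferase Acat1 by 2.39 ± 0.13 and the monocarboxylate carrier Slc16a1 by 0.75 ± 0.07, and 1 fell.

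In the peroxisome 20 of 38 measured enzymes rose and 4 fell, with a median log2 change of 0.68. Hacl1, the lyase of α-oxidation, had log2 levels of 7.18, 8.07 and 8.22 with DMSO and of 11.32, 10.40 and 11.09 with EMD (log2 change 3.12 ± 0.26). Nudt7, a hydrolase of coenzyme A, had 8.33, 8.61 and 8.68 against 11.41, 11.42 and 11.45 (log2 change 2.89 ± 0.10), a tight set of EMD values. The carnitine octanoyltransferase Crot rose by 2.45 ± 0.24, and Eci2, Ech1 and Decr2, which handle unsaturated fatty acids, by 2.15, 1.99 and 1.90. Fallers of this list were enzymes outside β-oxidation: the hydroxyacid oxidase Hao2 fell by 1.59 ± 0.22 and urate oxidase, Uox, by 1.06 ± 0.19 on the log2 scale. Without EMD replicate 1 the number that fell was 7. Of 16 peroxins, the proteins that build and divide peroxisomes, 8 rose and 1 fell, and Pex11a, which divides them, rose the most (log2 levels 8.23, 8.96 and 9.18 against 11.70, 11.79 and 11.89, change 3.0 ± 0.23). Catalase, Cat, rose by 0.98 ± 0.10.

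Acyl-CoA thioesterases, which release free fatty acids in the cytosol, mitochondria and peroxisomes, rose in 8 of 10 measured members, with a median log2 change of 2.10. Besides Acot1, the log2 rises were 2.35 ± 0.12 for the mitochondrial Acot2, 2.44 ± 0.16 for Acot7 and 2.17 ± 0.11 for Acot3. The other probe set of Acot7 changed by 0.18. Acot1 to Acot4 are close relatives in sequence, so part of one transcript's signal may be read by the probes of another. The CYP4 fatty acid hydroxylases did not move one way, 3 of 10 rising and 3 falling. Cyp4a1, the classical peroxisome proliferator-induced enzyme, had log2 levels of 9.55, 10.71 and 9.93 with DMSO and of 13.08, 12.59 and 12.64 with EMD (log2 change 2.71 ± 0.23). Cyp4a3 rose by 1.75 ± 0.22 on that scale, and Cyp4f1, a hydroxylase of leukotrienes and long-chain fatty acids, fell by 1.85 ± 0.18.

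Part of the genes of lipid storage rose as well. Of 20 lipid droplet and lipolysis genes 11 rose, 1 fell and 8 did not pass, with a median log2 change of 0.72. They included both droplet coats, Plin2 (1.05) and Plin5 (1.15), and lipases, with Mgll, the monoacylglycerol lipase, at log2 levels of 8.96, 9.39 and 9.04 against 11.60, 11.79 and 11.98 (change 2.66 ± 0.29) and Pnpla2, the triglyceride lipase, at 7.83, 8.53 and 8.36 against 10.16, 10.42 and 10.59 (change 2.15 ± 0.19). Fitm2, which buds droplets from the endoplasmic reticulum, rose by 2.0 ± 0.12, and Cideb, a droplet and lipoprotein factor of hepatocytes, fell by 0.63 ± 0.12 on the log2 scale. Of 23 genes of glycerol and triglyceride synthesis 12 rose, none fell and 11 did not pass, with rises of glycerol kinase Gk by 3.50 ± 0.16, mitochondrial glycerol phosphate dehydrogenase Gpd2 by 3.03 ± 0.24, the first acyltransferase Gpam by 1.64 ± 0.15, Agpat2 by 1.25, and the last-step enzymes Dgat1 and Dgat2 by 1.03 and 0.95. Among 13 fat cell genes under PPARγ 4 rose and none fell, these being Aqp7, Cd36, the droplet protein Cidea (1.27 ± 0.21) and the phosphatase Acp5 (0.91 ± 0.14).

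Genes of fatty acid synthesis did not all move alike. Of 23 genes of lipogenesis, desaturation and elongation 12 rose and 2 fell. The desaturases Scd (log2 levels 12.33, 11.86 and 11.23 against 13.95, 13.88 and 13.91) and Fads2 rose by 2.11 ± 0.17 and 2.25 ± 0.31, the elongase Elovl6 by 2.88 ± 0.18 and the malic enzyme Me1, which supplies NADPH, by 2.88 ± 0.21. The enzymes that build palmitate, Fasn and Acaca, changed by 0.17 and −0.33 and did not pass the test. The fallers were Pklr and Insig2 (−0.78 ± 0.17), which retains the sterol-sensing complex in the endoplasmic reticulum. Of 19 cholesterol genes 4 rose and none fell, but 2 rose without DMSO replicate 1, 2 or 3 or without EMD replicate 1 or 3, and without EMD replicate 1 also 3 fell. Lss, lanosterol synthase, rose by 0.82 ± 0.17 on the log2 scale and Fdps, farnesyl diphosphate synthase, by 0.62 ± 0.15.

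In glucose handling 10 of 32 genes rose and 3 fell. Beside Pdk4 and Gys2, pyruvate carboxylase, Pc, rose by 1.18 ± 0.22 on the log2 scale and the pyruvate dehydrogenase phosphatase Pdp2 by 1.67 ± 0.17. The glucose transporter Slc2a2 had log2 levels of 11.86, 11.97 and 12.17 with DMSO and of 10.14, 10.28 and 10.25 with EMD (log2 change −1.77 ± 0.14). Pdk4 and Pdp2, which act on pyruvate dehydrogenase in opposite ways, thus both rose, as did Txnip, a brake on glucose uptake, by 2.32. Of 28 mitochondrial carriers 10 rose and 2 fell (4 fell with the replicate number as a block), with the coenzyme A carrier Slc25a42 (2.57 ± 0.13), the uncoupling protein Ucp2 (2.29 ± 0.24), the ADP/ATP carrier Slc25a4 (1.86 ± 0.31) and the pyruvate carrier subunit Mpc2 (1.52 ± 0.09) the largest rises. The other subunit of that pyruvate carrier, Mpc1, fell by 0.47 ± 0.09.

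Of 23 genes of the citric acid cycle and mitochondrial biogenesis 10 rose and 2 fell. Tfam, the packaging protein of mitochondrial DNA, rose by 0.89 ± 0.13 on the log2 scale, its partner Tfb2m by 0.70 ± 0.16, and the succinyl-CoA ligase subunits Suclg1 and Suclg2 by 0.65 ± 0.08 and 0.72 ± 0.09. The isocitrate dehydrogenase Idh2 fell by 1.14 ± 0.22, while Aco1, the cytosolic aconitase, rose by 1.56 ± 0.12. The respiratory chain changed little in size. Of its 63 measured genes 9 rose and none fell (4 rose without DMSO replicate 1), with log2 rises of 0.41 ± 0.07 for Cyc1 and 0.38 ± 0.08 for Uqcrfs1, both of complex III, and the highest, 0.60 ± 0.11, for Ndufa3 of complex I.

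The 3 lists of secreted plasma proteins had the largest shares of falls. Of 27 complement genes 17 fell and 1 rose, with a median log2 change of −0.88. Vtn, vitronectin, had log2 levels of 12.61, 12.83 and 12.72 with DMSO and of 11.01, 10.01 and 9.97 with EMD (log2 change −2.39 ± 0.22, adjusted p = 1.4e-06). The classical pathway proteases C1s and C1r fell by 2.37 ± 0.47 and 1.66 ± 0.35 on the log2 scale, the lectin Mbl2 by 1.70 ± 0.25, the central component C3 by 1.43, and C6 and C8a of the membrane attack complex by 1.38 and 1.18. Cfhr4, a factor H relative, fell by 2.89 ± 0.23. Cd46, a complement regulator of the cell membrane, was the riser (0.97 ± 0.16), and 2 rose with the replicate number as a block.

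Of 40 genes of coagulation and the serpin family 23 fell and 2 rose, with a median log2 change of −0.99. Beside Hrg and Serpind1, factor V, F5, had log2 levels of 9.89, 10.36 and 10.30 against 8.39, 7.88 and 7.27 (change −2.34 ± 0.29). Prekallikrein, Klkb1, fell by 2.15 ± 0.33, Serpina11 by 2.03 ± 0.26, plasminogen, Plg, by 1.34, factor IX, F9, by 1.07 and antithrombin, Serpinc1, by 0.67. Fibrinogen changed less, with log2 changes of −0.65 for Fga, −0.51 for Fgg and −0.41 for Fgb, of which the last did not pass the test. Serpine2 was one of the risers in this list.

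Of 35 acute phase, carrier and iron genes 18 fell and 2 rose. Ahsg, fetuin-A, had log2 levels of 13.60, 13.59 and 13.69 with DMSO and of 12.09, 10.53 and 10.52 with EMD (log2 change −2.58 ± 0.36), and here the first EMD array fell by less than the others. Fetub, fetuin-B, fell by 2.28 ± 0.26 on the log2 scale, the proteinase inhibitor Mug1 by 1.85 ± 0.20, serum amyloid P, Apcs, by 1.76 ± 0.31, the inhibitor heavy chain Itih1 by 1.75 ± 0.29, transthyretin, Ttr, by 0.47 and haptoglobin, Hp, by 0.46. Orm1, orosomucoid, changed by −0.08. Hjv, the coreceptor that raises hepcidin, rose by 1.04 ± 0.20.

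The summed level of the 11 hepatocyte markers, some of which are themselves plasma proteins of these lists, was 16.24 to 16.41 with DMSO and 15.85 to 15.97 with EMD on the log2 scale. Of them 1 rose and 5 fell, and their part in the results was not tested. Hnf4a, the nuclear receptor that maintains hepatocyte genes, changed by 0.02. Of 19 liver-enriched transcription factors 4 rose and 5 fell (3 fell without EMD replicate 3), with Cebpb, of the acute phase response, up by 1.0 ± 0.13 and its relative Cebpd down by 1.77 ± 0.21 on the log2 scale. Other probe sets of Cebpd changed by −1.69 to 0.21. Creb3l3, a membrane-bound factor of fasting, rose by 1.02 ± 0.13.

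Lipoprotein genes moved both ways. Of 23 measured 4 rose, 9 fell and 10 did not pass. Mttp, which loads lipid onto apolipoprotein B, had log2 levels of 10.08, 10.10 and 10.01 with DMSO and of 11.63, 11.30 and 11.38 with EMD (log2 change 1.37 ± 0.11). The lipoprotein receptor Lrp1 rose by 1.25 ± 0.21, the lipoprotein lipase inhibitor subunit Angptl8 by 1.14 ± 0.23 and the cholesterol exporter Abca1 by 0.98 ± 0.15. Falls on the same scale were 2.60 ± 0.34 for Lcat, which esterifies cholesterol in plasma, 1.42 ± 0.17 for Apoc4, 1.36 ± 0.25 for Apoc2, 1.32 ± 0.21 for Apoc1 and 0.95 for Apoa1. Apoa5, which speeds triglyceride clearance, had log2 levels of 10.48, 10.98 and 10.86 against 8.42, 8.49 and 8.32 (change −2.36 ± 0.18). Apob changed by −0.23 and did not pass the test.

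Genes of nitrogen and amino acid metabolism were mostly lower where they moved. Of 12 urea cycle genes 6 fell and 1 rose, among them Otc, Car5a and Ass1, argininosuccinate synthase, with log2 levels of 11.97, 12.85 and 12.84 against 9.80, 10.52 and 10.42 (change −2.31 ± 0.22). Cps1, the entry enzyme, fell by 0.56 ± 0.13 on the log2 scale, and Slc25a13, the aspartate carrier, rose by 0.92 ± 0.14. Of 43 genes of amino acid catabolism 16 fell and 5 rose (1 rose without DMSO replicate 1 and 3 without DMSO replicate 2), with a median log2 change of −0.55. The methyl-group enzymes Bhmt, Gnmt and Mat1a fell by 2.28 ± 0.40, 1.63 ± 0.27 and 1.29 ± 0.27, and Haao and Kmo of tryptophan breakdown by 1.60 ± 0.27 and 1.52 ± 0.15. Oat, ornithine aminotransferase, rose against this direction, from log2 levels of 8.01, 7.18 and 8.55 to 11.34, 11.31 and 11.59 (change 3.50 ± 0.29).

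Of 31 conjugation enzymes 13 fell and 2 rose (4 rose with the replicate number as a block), with a median log2 change of −0.71. The glutathione transferase Gstm3 had log2 levels of 8.50, 9.15 and 9.37 with DMSO and of 6.38, 6.17 and 6.97 with EMD (log2 change −2.50 ± 0.29), its relative Gstm2 fell by 1.78 ± 0.19, and the glucuronosyltransferases Ugt2b10 and Ugt2b35 by 1.50 ± 0.34 and 1.47 ± 0.28. Gstt1 and the sulphotransferase Sult1c3 were the risers (0.57 ± 0.11 and 2.16 ± 0.44). Cytochromes P450 of families 1 to 3 went both ways, 5 of 27 rising (2 without DMSO replicate 1) and 6 falling (3 without DMSO replicate 3 or EMD replicate 2), with Cyp2c11 and Cyp2d2 (−1.73 ± 0.24) among the falls and Cyp2c6v1 (1.74 ± 0.25) and their electron donor Por (1.27 ± 0.16) among the rises. Members of these families are alike in sequence, so the probes may not separate them. Mean log2 levels of Cyp2c6v1 were 10.62 with DMSO and 10.45 with EMD at 24 h, and 7.40 and 9.13 at 72 h. Both groups of Cyp2c6v1 thus lay lower at the later time, the DMSO group more so. Of 17 aldehyde dehydrogenases 7 fell and 2 rose (3 fell without EMD replicate 2 or 3), with Aldh1l2 and Aldh2 lower by 1.28 ± 0.19 and 0.95 ± 0.12 and the retinal dehydrogenases Aldh1a1 and Aldh1a2 higher by 1.37 ± 0.19 and 1.55 ± 0.22.

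Of 31 genes of bile acid synthesis and hepatic transport 12 fell and 2 rose. Slc10a1, the bile acid importer, had log2 levels of 5.59, 7.97 and 7.33 with DMSO and of 4.24, 4.50 and 4.07 with EMD (log2 change −2.69 ± 0.57, adjusted p = 0.0029), and its first DMSO array lay well below the others. The bile acid CoA ligase Slc27a5 fell by 2.63 ± 0.51 on the log2 scale, and the anion transporters Slco1a4 and Slc22a8 by 1.87 ± 0.38 and 1.77 ± 0.43. Abcg5, a sterol exporter, rose by 0.67 ± 0.15. Among 27 genes of growth hormone and related hormones 9 fell and 1 rose (3 rose with the replicate number as a block). They included the growth hormone receptor Ghr (−2.41 ± 0.27), the glucagon receptor Gcgr (−2.10 ± 0.29) and Hsd11b1 (−2.48 ± 0.21), the enzyme that regenerates active glucocorticoid. Fgf21, a hormone of the fasting liver and a known PPARα target, had log2 levels of 9.38, 10.13 and 10.03 with DMSO and of 9.35, 7.65 and 8.47 with EMD (log2 change −1.36 ± 0.30, adjusted p = 0.0045), with a narrow gap between the groups. In a fit of these 6 arrays alone the adjusted p was 0.077.

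Genes of the cytoskeleton and of cell contacts fell more often than they rose, and most of them did not pass. Of 55 actin, TGFβ and mesenchymal genes 18 fell, 4 rose and 33 did not pass, while 30 fell with the replicate number as a block and 11 without EMD replicate 3. Ccn2, a matrix protein raised by TGFβ and YAP, had log2 levels of 13.09, 13.03 and 12.99 with DMSO and of 11.28, 9.88 and 9.91 with EMD (log2 change −2.68 ± 0.47), and Ccn1 fell by 1.37 ± 0.23. Vim, vimentin, fell by 1.61 ± 0.17 and the calcium-binding S100a6 by 1.68 ± 0.39, while Vcl, vinculin, rose by 0.49 ± 0.12 on the log2 scale. Of 26 junction genes 11 fell, 1 rose and 14 did not pass, with the adhesion molecule F11r down by 1.29 ± 0.12, N-cadherin, Cdh2, by 1.20 ± 0.16, the gap junction protein Gjb1 by 1.48 ± 0.25 and the tight junction scaffold Tjp1 by 0.98 ± 0.13, and the scaffold Tjp3 up by 0.74 ± 0.13. E-cadherin, Cdh1, a member of both lists, had the largest fall of the junction genes (log2 change −2.35 ± 0.59, adjusted p = 0.011). That call was lost without EMD replicate 2 (0.0644) or 3 (0.0537), and the other probe set of Cdh1 changed by 0.19. The hepatocyte keratins Krt8 and Krt18 fell by 0.77 ± 0.11 and 0.76 ± 0.12, 2 of the 4 fallers among 19 keratin and biliary genes (6 fell without EMD replicate 1).

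Markers of other cell types gave the following levels beside these results. Summed on a linear scale and given as log2, the 19 keratin and biliary genes lay at 14.74 to 15.02 with DMSO and 13.96 to 14.29 with EMD, and the 22 stellate cell and fibroblast genes at 11.70 to 12.13 and 10.65 to 10.88. Such sums rest mostly on the brightest genes of a list. Median log2 changes were −0.20 for the keratin and biliary, 0.02 for the stellate and −0.20 for the macrophage genes. Mean log2 levels of the stellate genes were 4.546 to 4.656 with DMSO and 4.519 to 4.563 with EMD, and 3 of the 22 lay above the median level in all 6 arrays. The stellate list had 3 fallers and 1 riser, Vim among the former and the collagen Col5a2 (1.64 ± 0.37) the latter, and Col1a1, its defining collagen, changed by 0.12. The 18 macrophage genes lay at 10.72 to 11.39 and 9.998 to 10.08, with 3 falling (5 with the replicate number as a block) and none rising: lysozyme, Lyz2, by 1.68 ± 0.22, the endotoxin receptor Cd14 by 0.84 ± 0.18 and the mannose receptor Mrc1 by 0.83 ± 0.18. The 16 endothelial genes lay at 8.717 to 9.066 and 8.863 to 9.056, with 1 riser, Eng (0.79 ± 0.14). The 15 lymphocyte and neutrophil genes lay at 7.603 to 7.706 and 7.688 to 7.795, with no call and no gene above the arrays' median level. The leucocyte marker Ptprc, the endothelial marker Pecam1 and the biliary marker Krt19 changed by 0.14, 0.03 and 0.06 on the log2 scale and did not pass. The part of these cells in the falls of matrix, cytoskeletal and inflammatory genes was not tested.

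Of 43 chemokine, interleukin-1 and NF-κB response genes 14 fell and 4 rose. The number that rose was 2 without DMSO replicate 1 or 2 or EMD replicate 1 or 3. The number that fell was 7 without DMSO replicate 1, 8 without DMSO replicate 2, 8 without EMD replicate 2 and 6 without EMD replicate 3. Il1r2 was the largest fall and Cxcl12, a chemokine, the largest rise (log2 levels 3.94, 3.81 and 3.86 against 6.91, 5.08 and 5.60, change 1.99 ± 0.40), and Nfkbiz, a regulator of NF-κB targets, rose by 1.29 ± 0.23. Other probe sets of Cxcl12 changed by 0.24 to 0.91. Ccl2 and Cxcl1, which attract monocytes and neutrophils, varied widely, with DMSO log2 levels of 8.12, 6.92 and 4.02 for Ccl2 and of 9.53, 8.18 and 7.05 for Cxcl1. Their EMD levels were 4.59, 3.78 and 3.28 and 6.89, 4.50 and 5.41, and each call was lost without 1 of 3 arrays, DMSO replicate 1 among them for both (adjusted p = 0.0659 and 0.0921), Ccl2 also without DMSO replicate 2 (0.0617) or EMD replicate 3 (0.0673) and Cxcl1 also without EMD replicate 2 (0.0928) or 3 (0.0608). Of 34 interferon-inducible genes 6 fell and 1 rose (3 fell without EMD replicate 2, and 2 rose with the replicate number as a block), with Cxcl11 down by 1.41 ± 0.20, Ifit2 by 0.98 ± 0.18 and Tap2 by 0.68 ± 0.16, and Cxcl9 up by 0.50 ± 0.10.

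Part of the genes of the endoplasmic reticulum (ER) and the integrated stress response differed between the EMD arrays. Of 39 measured 8 rose and 13 fell, and without EMD replicate 1 the numbers were 17 and 12. The number that rose was 4 without DMSO replicate 2, 5 without EMD replicate 2 and 3 without EMD replicate 3. Sdf2l1, an ER folding factor, had log2 levels of 8.34, 8.38 and 8.14 with DMSO and of 8.32, 10.95 and 10.58 with EMD. The first EMD array thus lay among the DMSO arrays and the other two more than 2 log2 units higher, for a change of 1.66 ± 0.43 (adjusted p = 0.012) with all arrays and of 2.48 (adjusted p = 9.4e-08) without the first. The call was lost without EMD replicate 2 (0.0739) or replicate 3 (0.0743) and in a fit of these 6 arrays alone (0.137). The folding genes Creld2, Dnajb11 and Pdia4, chosen after their values were seen, showed the same pattern, with log2 changes of 1.38 (adjusted p = 0.056), 0.83 (0.095) and 0.76 (0.15) with all arrays and of 2.30, 1.46 and 1.33 without the first. Hyou1, a chaperone, changed by 1.10 ± 0.31 (adjusted p = 0.019) and by 1.62 without it, and its call was lost without DMSO replicate 2 (0.06), DMSO replicate 3 (0.0516), EMD replicate 2 (0.115) or EMD replicate 3 (0.0991). The main ER chaperones Hspa5 and Hsp90b1 changed by 0.09 and −0.07, and Hspa5 by 0.46 without the first array.

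Other members of the list moved alike in all EMD arrays. Chac1, which degrades glutathione and is raised by ATF4, had log2 levels of 9.40, 10.28 and 10.09 against 7.96, 7.31 and 8.03 (change −2.15 ± 0.19). Xbp1, the transcription factor of the unfolded protein response, had 10.88, 10.90 and 11.06 against 9.88, 9.83 and 9.83 (change −1.11 ± 0.09), and the one-carbon enzyme Mthfd2 and the stress protein Nupr1 fell by 1.0 ± 0.14 and 0.97 ± 0.11. The transcription factors Atf3 and Atf4 fell by 0.87 and 0.59 on the log2 scale and asparagine synthetase, Asns, by 0.60. Vldlr, a lipoprotein receptor also raised by ATF4, rose by 1.54 ± 0.16.

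Counted over all 14217 genes, 1539 (10.8%) had replicates 2 and 3 above every DMSO array and replicate 1 not. Among the ER and stress response genes this was so for 12 of 39 (30.8%), and among 35 measured cytosolic ribosomal protein genes for 22 (62.9%). No gene of the PPARα list had that pattern. Replicates 2 and 3 lay below every DMSO array, and replicate 1 did not, for 949 of all genes (6.68%). This was so for 5 of 27 complement genes (18.5%) and 7 of 40 coagulation and serpin genes (17.5%). Of the ribosomal protein genes 4 rose and none fell, and 15 rose without EMD replicate 1, 2 without DMSO replicate 2, 1 without DMSO replicate 3, 1 without EMD replicate 2 and none without EMD replicate 3. Their changes were small, with a median of 0.15 on the log2 scale.

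**Figure D4:**
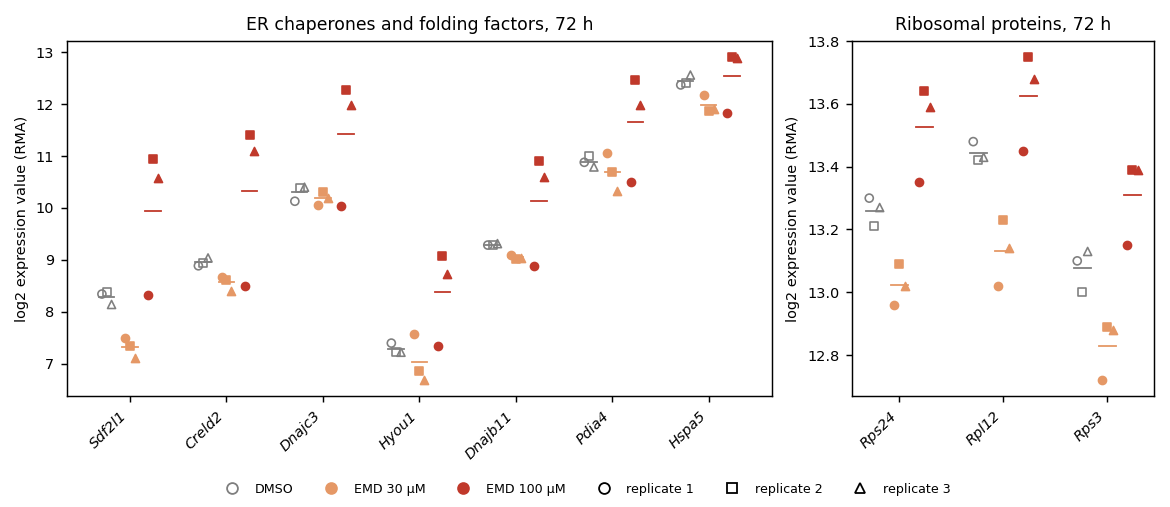
Log2 expression values (y axis) of 7 ER folding genes (left) and 3 ribosomal protein genes (right) in the 9 arrays of 72 h, with open grey for DMSO, orange for 30 µM EMD and red for 100 µM EMD, marker shapes for replicates 1 to 3 and short lines for group means. For Sdf2l1 the red circle (replicate 1, 8.32) lies among the DMSO arrays while the red square and triangle lie at 10.95 and 10.58.

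The remaining lists hold genes of protein turnover, growth, oxidative stress and the clock. Of 33 proteasome subunits none rose and none fell (2 fell with the replicate number as a block, and 3 rose and 1 fell without EMD replicate 1). Of 46 cell cycle genes 4 rose and 3 fell (9 rose without EMD replicate 1), with the kinase Cdk2 up by 0.98 ± 0.14 and Cdc20, of the anaphase, by 0.77 ± 0.13, and Myc down by 0.87 ± 0.12 on the log2 scale. Other probe sets of Cdc20 changed by −0.28 to 0.25. Of 24 p53 and apoptosis genes 2 rose and 4 fell (2 fell without EMD replicate 3), with Sesn1 and Mcl1 down by 0.91 ± 0.14 and 0.40 ± 0.09. Of 39 NRF2 and glutathione genes 7 rose and 9 fell (4 rose without DMSO replicate 2 or EMD replicate 3). Haem oxygenase, Hmox1, had log2 levels of 10.49, 9.87 and 10.22 against 11.29, 12.09 and 11.40 (change 1.40 ± 0.30), while Osgin1, an oxidative stress response gene, and glutathione synthetase, Gss, fell by 1.34 ± 0.18 and 0.97 ± 0.14. Of 16 clock genes 5 rose and 2 fell (3 rose without DMSO replicate 1 or EMD replicate 2, and 2 without DMSO replicate 2 or EMD replicate 3), and Hlf, a clock output factor, rose by 2.06 ± 0.30. 

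Against 30 µM EMD at the same time, 261 genes were higher at 100 µM (1.84%) and 348 lower (2.45%). This dose comparison rested heavily on single arrays. Over all probe sets 963 differed, but 141 without EMD 100 µM replicate 2, 177 without its replicate 3, 2541 without its replicate 1, 492, 238 and 336 without replicates 1, 2 and 3 of 30 µM, and 1625 with the replicate number as a block. Of the 348 genes lower than at 30 µM, 131 were also lower than DMSO, 59 were higher than DMSO and 158 were not called against DMSO. Of the 261 higher than at 30 µM, 74 were higher than DMSO, 19 lower and 168 not called. Over all genes 9.24% were higher than DMSO and 13.0% lower. The dose comparison and that with DMSO share the 100 µM arrays, so a like direction in both is partly built in. The comparisons with DMSO share the DMSO arrays.

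Fatty acid oxidation genes tended to lie lower at 100 than at 30 µM, although most stood above DMSO at either dose. The median log2 difference between the doses was −0.35 over the 26 genes of mitochondrial β-oxidation and −0.40 over the 38 peroxisomal enzymes, beside 0.02 over all genes. Of the former 7 were called lower and none higher, and of the latter 12 and none. These calls depended on the arrays: without EMD 100 µM replicate 2, EMD 100 µM replicate 3, or replicate 1, 2 or 3 of 30 µM the numbers called lower were 0, 1, 2, 1 and 1 for β-oxidation and 1, 1, 4, 1 and 2 for the peroxisome. Against DMSO, Acot1 changed by 8.58 at 100 µM and 8.72 at 30 µM, Pdk4 by 4.40 at both, and Cpt1b by 4.86 and 5.46. Of the 63 respiratory chain genes 3 were lower at 100 than at 30 µM and none higher, among them Ndufa3, which differed by −1.03 (adjusted p = 5.3e-04). Ribosomal protein genes were higher at 100 µM in 25 of 35 cases, in 7 after cyclic loess scaling, in 2 without EMD 100 µM replicate 2 or 3, in 30 without its replicate 1 and in 6, 7 and 10 without a 30 µM array. Their median log2 difference was 0.32 between the doses and 0.15 between 100 µM and DMSO. At 30 µM 5 of the 35 were lower than DMSO and none higher, beside 13.0% and 9.44% of all genes.

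Slco1a1, Cyp2a2 and Hrg, and below Cyp8b1, Dhrs7l1, Faxdc2, Sdf2l1 and Soat1, were named for being among the largest dose differences. Their sizes and calls are thus a description. Slco1a1 had log2 levels of 7.64, 6.89 and 6.86 at 30 µM, which did not differ from DMSO by the test (−0.74, adjusted p = 0.22), and of 4.75, 3.87 and 4.12 at 100 µM (difference −2.88, adjusted p = 0.0013). Cyp2a2, a testosterone hydroxylase, had 8.81, 8.84 and 8.67 at 30 µM and 6.90, 6.12 and 6.46 at 100 µM (difference −2.28, adjusted p = 0.0014), with DMSO at 7.36, 8.87 and 8.45. Hrg had 11.66, 10.54 and 10.05 at 30 µM, between DMSO and 100 µM (difference −2.17, adjusted p = 0.0058). In Slco1a1, Cyp2a2 and Hrg all 100 µM arrays lay below all 30 µM arrays.

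In a further set the mean at 30 µM lay above DMSO and the mean at 100 µM below that at 30 µM. Cyp8b1, the sterol 12α-hydroxylase of bile acid synthesis, had log2 levels of 10.91, 10.97 and 11.15 at 30 µM and of 9.46, 6.89 and 8.24 at 100 µM (difference −2.82, adjusted p = 0.0034), against 7.62, 8.70 and 8.45 with DMSO. Its change against DMSO was 2.75 at 30 µM (adjusted p = 2.2e-04) and −0.06 at 100 µM, which did not pass and took the other sign without DMSO replicate 2 (0.16) or 3 (0.03) or EMD replicate 2 (0.59). Dhrs7l1, a short-chain dehydrogenase, changed by 0.86 at 30 µM, which did not pass (adjusted p = 0.24), and by −2.85 at 100 µM (difference −3.72, adjusted p = 8.8e-04), and Fgf21 by 0.40, which did not pass either (adjusted p = 0.45), and −1.36 (difference −1.75, adjusted p = 0.0061). Faxdc2 changed by 5.33 at 30 µM and 3.14 at 100 µM (difference −2.19, adjusted p = 0.005).

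Higher at 100 than at 30 µM were Sdf2l1 (difference 2.63, adjusted p = 0.0049), which changed by −0.97 against DMSO at the lower dose without passing (adjusted p = 0.15), Soat1, which esterifies cholesterol for storage (difference 2.03, adjusted p = 0.0047), and Fabp5 (difference 1.16, adjusted p = 0.0058). Soat1 had log2 levels of 5.77, 4.44 and 4.40 with DMSO, of 6.09, 5.83 and 6.26 at 30 µM and of 7.28, 8.52 and 8.48 at 100 µM, with no overlap between the 3 groups. The dose differences named for Ndufa3, Slco1a1, Cyp2a2, Hrg, Cyp8b1, Dhrs7l1, Fgf21, Faxdc2, Sdf2l1, Soat1 and Fabp5 passed under every alternative tried.

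**Figure D5:**
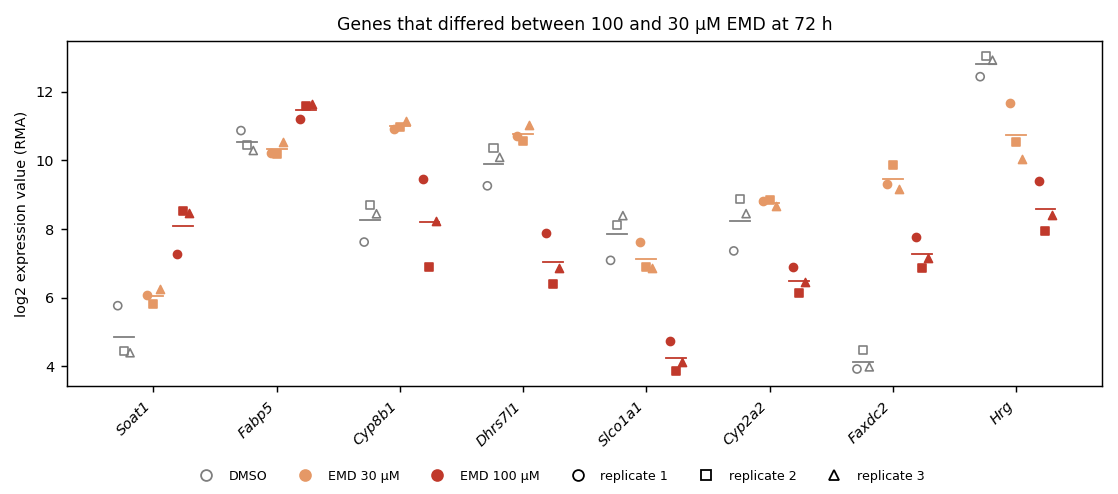
Log2 expression values (y axis) of 8 genes that differed between 100 and 30 µM EMD, in the 9 arrays of 72 h, with open grey for DMSO, orange for 30 µM and red for 100 µM EMD, marker shapes for replicates 1 to 3 and short lines for group means. For Cyp8b1 the orange points lie at 10.91 to 11.15 and the red ones at 6.89 to 9.46, around the DMSO arrays.

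Set against the response to 100 µM at 24 h, each time with its own DMSO arrays, the response at 72 h was higher for 48 genes (0.338%) and lower for 96 (0.675%). Over all probe sets 215 differed, but 57 without DMSO 72 h replicate 2, 64 to 141 without replicate 2 or 3 of EMD at 72 h, replicate 2 or 3 of DMSO at 24 h or any EMD array of 24 h, 800 without EMD 72 h replicate 1 and 534 with the replicate number as a block. Acot1 changed by 8.68 at 24 h and 8.58 at 72 h, and Crat by 3.01 and 2.76, differences that did not pass the test. Other fatty acid and pyruvate genes had smaller changes at 72 h than at 24 h. Cyp4a3 changed by 4.57 at 24 h and 1.75 at 72 h (difference −2.82, adjusted p = 9.1e-04), Cyp4a1 by 4.91 and 2.71 (difference −2.20, adjusted p = 0.0048) and Pdk4 by 6.24 and 4.40 (difference −1.84, adjusted p = 0.0042). Between the times their mean EMD levels differed by less than their DMSO levels did. The EMD levels were 13.25 at 24 h and 13.23 at 72 h for Cyp4a3, 12.49 and 12.77 for Cyp4a1 and 12.36 and 12.68 for Pdk4, while the DMSO levels were 8.68 and 11.48, 7.59 and 10.07, and 6.13 and 8.28. The smaller changes at 72 h thus went with higher levels in the vehicle arrays.

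Other changes were larger at 72 h. Scd2, read through 1 of its 4 probe sets, changed by 0.91 at 24 h and 5.61 at 72 h (difference 4.69, adjusted p = 0.0015). Aqp3 changed by 1.13 and 4.66 (difference 3.53, adjusted p = 0.011), and Fabp3 by 2.16 and 5.43 (difference 3.27, adjusted p = 0.0028). More negative at 72 h were the changes of Il1r2 (−1.29 and −4.37, difference −3.08, adjusted p = 0.0042) and Hsd11b1 (−0.37 and −2.48, difference −2.11, adjusted p = 0.0039). The same held for Vtn (−0.47 and −2.39, difference −1.92, adjusted p = 0.011) and Chac1 (−0.45 and −2.15, difference −1.71, adjusted p = 0.0082). Against DMSO at 24 h the changes of Scd2, Aqp3 and Chac1 did not pass (adjusted p = 0.25, 0.14 and 0.24).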

How the data were processed

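Whole-genome rat arrays (Affymetrix) read the total RNA of 18 hepatocyte cultures, 3 per group in 6 groups (DMSO, 30 or 100 µM EMD, each at 24 or 72 h), grouped by the labels. The deposited log2 values had been made by the authors with robust multi-array averaging (RMA, named in the submitters' processing notes, its version not given in the sources used here), which corrects background and makes the arrays' distributions equal. The values carry no detection calls, and low values are compressed. The arrays hold no counts, and their number limits the precision. Every array was used, and 57 control probe sets were left out.

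The 31042 other probe sets were tested with limma 3.58.1 in R 4.3.3, with lmFit and eBayes over all 6 groups in 1 fit, which share 1 estimate of spread, and Benjamini-Hochberg adjustment over all probe sets at 0.05. The contrasts were 100 µM against DMSO at 72 h, 100 against 30 µM at 72 h, and the 100 µM response at 72 h minus that at 24 h. Probe sets were named through the platform's annotation, in which 20826 had 1 symbol, 436 several and 9780 none, and 20758 of the 20826 matched the RefSeq gene table. Genes with several probe sets (4525 of 14217) were read through the one with the highest mean over 18 arrays. Among 1108 such genes that were called, 188 had another probe set of opposite sign. Among named genes, other probe sets changed, for example, by 0.13 to 3.79 for Acsl1, 0.08 to 2.74 for Crot and −1.50 to −0.02 for Cdh2. Those of Lhfpl6, Pklr, Gna14 and Cps1 changed by 0.04, −1.35, −2.47 and −1.03. All are log2 changes at 100 µM against DMSO at 72 h. No filter on low values was used.

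The comparison, the gene lists and the promoter search were chosen with earlier results of these data known. Genes were named by rule: the 15 largest rises and 15 largest falls among called genes without overlap between the groups, the PPAR receptors, the study's PPARα list, up to 5 called members per list and direction by size, and the 8 largest calls each way by dose and time. Members named beyond that were chosen for their role, and the alternatives below were run for the genes named by rule and the list counts.

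The study's methods state that the cells of each animal received every treatment, and samples with the same replicate number deviated together between the groups compared (correlations of their deviations from the group means 0.332, 0.12 and 0.372, against −0.334 to 0.129 for other pairs), so the numbers were taken to pair the samples, and a fit with the replicate block was an alternative. Other alternatives were the 6 arrays alone, array weights, equal array medians, cyclic loess, a mean-variance trend, a filter on dim probe sets and leaving out each array. A fit of the 6 arrays with the block was added after seeing the data. The procedure was tested on simulated data.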

Additional observations from a re-analysis of the deposited data

Results flagged for a closer look

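Among the 298 genes named by rule, the log2 change against DMSO at 100 µM differed between 72 h and 24 h in 37 by limma's test of that difference (adjusted p under 0.05), lower at 72 h in 26 and higher in 11. Of these genes 16 had been named for being among the largest such differences, so the count is partly fixed by that choice. Among the 282 named for other reasons alone 21 differed, beside 0.338% higher and 0.675% lower over all genes. Many of those 282 were named for the size of their change at 72 h, which is part of the difference tested. That count is thus partly fixed by the choice as well, and its excess over all genes is not read as a result. Values below are the log2 change at 72 h minus that at 24 h. The 12 that passed under every alternative tried were Il1r2 (−3.08), Cyp4a3 (−2.82), Cyp4a1 (−2.20), Hsd11b1 (−2.11), Vtn (−1.92), Pdk4 (−1.84), Chac1 (−1.71), Acot3 (−0.91), Lrrc39 (2.84), Fabp3 (3.27), Aqp3 (3.53) and Scd2 (4.69). The other 25 lost the call under 1 or more alternatives. Those lower at 72 h were Hrg (−3.05), Cyp2c11 (−2.78), Lhfpl6 (−2.59), Bhmt (−2.58), Slco1a1 (−2.51), Cd36 (−2.15), Ghr (−2.06), Ehhadh (−1.85), Fetub (−1.79), Cfhr4 (−1.56), Mug1 (−1.48), Cpt1a (−1.39), Apoa5 (−1.20), Acot4 (−1.19), Apoc4 (−1.10), Mthfd2 (−0.97), Creb3l3 (−0.96) and Nupr1 (−0.76). Those higher were Gpam (1.02), Vldlr (1.21), Scd (1.26), Cyp2c6v1 (1.91), Oat (1.98), Hmox1 (2.17) and Soat1 (2.19). Groups of 3 arrays are too small for the test of outlying samples that larger groups would allow. No measurement outside the expression values was used.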

How the results depend on the processing

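For the 289 of 298 named genes that passed against DMSO, no alternative turned the direction. Of the 9 that did not pass, Cyp8b1 and Cox6a2 changed sign when 1 array was left out. There were 13 alternatives, but 27 of the 298 genes lay below the filter on dim probe sets and had 12. Of the 289, 211 passed under every alternative run for them and 78 lost the call under 1 or more, most often (58) in a fit of the 6 arrays alone. The 5308 probe sets that differed from DMSO became 3305 with the 6 arrays alone (1364 higher, 1941 lower), 8192 with array weights (3946 higher), and 3664 to 6097 without 1 array each. With the replicate block, which pairs arrays of the same number, the count was 6587, and 4231 when the block was added to the 6 arrays alone, a fit chosen after seeing the data. The 963 that differed between doses became 1625 with the replicate block, 3336 with array weights and 141 to 2541 without 1 array each. The 215 whose response differed between times became 534 with the replicate block, 1090 with array weights and 57 to 800 without 1 array each. Of the ER and stress response genes 8 rose, against 3 with the 6 arrays alone, 15 with array weights and 3 to 17 without 1 array each. Of the actin, TGFβ and mesenchymal genes 18 fell, against 30 with the replicate block or with array weights and 11 to 25 without 1 array each. Of the chemokine and NF-κB genes 14 fell, against 5 with the 6 arrays alone and 6 to 15 without 1 array each. Gpnmb (log2 change 0.82, adjusted p = 0.079) passed with the replicate block (0.035), which changed no other call among the named genes. List medians changed sign between scalings for the clock, ketogenesis, proteasome and stellate cell lists, all within 0.03 of 0. The causes were not tested. The number of arrays limits what small changes could be seen, and low signals limit the size of changes.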
